A study of Sorghum bicolor with 24 samples.

Results

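The comparison described here sets laser-captured epidermis against laser-captured pith parenchyma of the sorghum stem, 4 libraries of each, out of 24 libraries in the series. The members are the count columns of these 8 libraries, and all genes of the table entered the comparison. The plants were Sorghum bicolor cv. Wray, grown in a greenhouse under days of 14 h and sampled at 74 days in the vegetative phase from the internode at phytomer 8, which was the youngest to have finished elongating. The labels name 4 plants and 4 biological replicates, but they do not say which plant gave which replicate number. No genotype or treatment differed between the groups, and every library came from the same cultivar. The other libraries were whole stem processed without capture and 3 captured vascular types, which were phloem, vascular parenchyma and xylem sclerenchyma, with 4 replicates each. Captured cells were cut from 20 µm cryosections and the RNA was amplified as full-length cDNA before sequencing.

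The epidermis is the outer cell layer of the stem. In grasses it secretes the cuticle, a cover of cutin and wax, and it carries the stomata and the silica cells, and in sorghum it is also the layer that deposits the waxy bloom on the stem. Pith parenchyma consists of large thin-walled cells that fill the centre of the internode, and in sweet sorghums these cells store sucrose in their vacuoles. The contrast therefore sets a secreting, protective boundary layer against a storage tissue.

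The files used here list genes by identifier, with no name or product, and 0 of the 34117 identifiers matched the gene table supplied for lookup. No gene is given a name or a role for that reason, no more than 2 genes per direction are printed, and the captured tissues could not be checked against known epidermis or pith markers. Groups of genes are described by their levels across the libraries instead.

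Library depth and detection differed among the 8 libraries. Total counts were 9706378 and 10516417 in epidermis replicates 1 and 2, 38880291 and 33400447 in epidermis replicates 3 and 4, and 8247350 to 12740916 in pith parenchyma. CPM denotes the counts of a gene scaled to a common library total. Genes above 1 CPM numbered 10439 and 10911 in epidermis replicates 1 and 2, 16108 and 16327 in epidermis replicates 3 and 4, and 14639 to 16023 in pith parenchyma. The epidermis mean was 13446 ± 3207 and the pith parenchyma mean 15508 ± 639 (SD, n = 4 each), a difference with an exact two-sided permutation p of 0.429, where the smallest p this design allows is 0.0286. Thinning all 8 libraries to 8247344 counts left epidermis replicates 1 and 2 at 10406 and 10896 genes, epidermis replicates 3 and 4 at 16012 and 16236, and pith parenchyma at 14636 to 15942. The low detection in the first 2 epidermis replicates was thus as large at equal depth. Among the captured vascular libraries, which enter the fit below, phloem replicate 3 was also low, with 11021 genes above 1 CPM at 27471101 counts. Phloem replicates 1 and 2 had totals of 2769555 and 3658511 counts. Epidermis replicates 1 and 2 had a Spearman correlation of 0.587 with each other across the 19502 tested genes, against 0.87 between replicates 3 and 4 and 0.762 to 0.877 within pith parenchyma. These correlations run across genes, which are not independent replicates. The calls, their directions and the main counts on called genes are therefore also given from epidermis replicates 3 and 4; the shares by chromosome and by neighbour are given over all 4 alone.

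**Figure D1:**
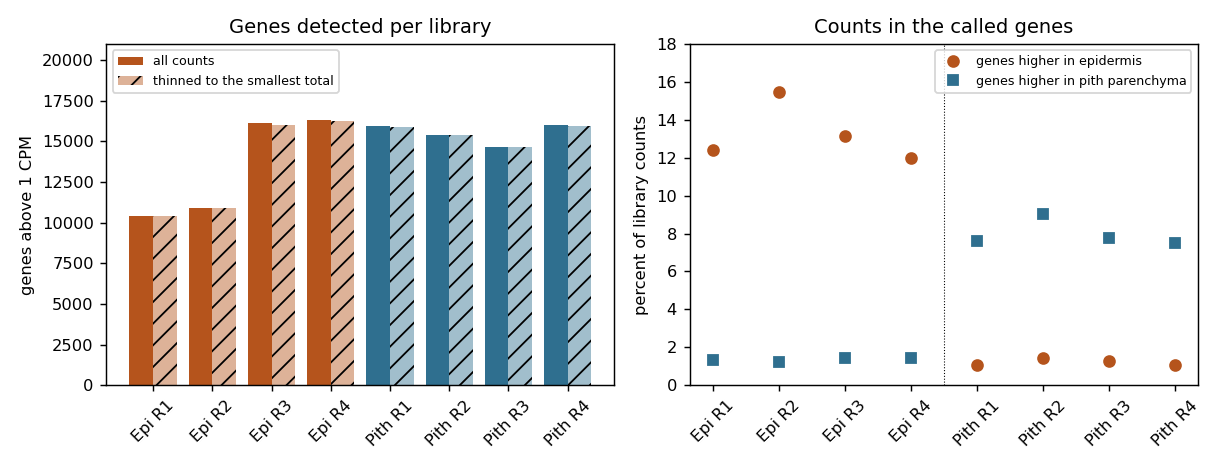
Left, genes above 1 CPM in each epidermis (Epi) and pith parenchyma (Pith) library, from all counts and after thinning to the smallest total. Right, the percent of each library's counts that fell in the 285 genes called higher in epidermis (circles) and the 213 called higher in pith parenchyma (squares). Epidermis replicates 1 and 2 stand low on the left, while on the right all 4 epidermis libraries lie together.

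What is detected in epidermis and in pith parenchyma was largely shared. Of the genes in the table, 10980 were above 1 CPM in at least 3 of 4 libraries of both types, 1046 reached this in epidermis but not in pith parenchyma, and 3651 reached it in pith parenchyma but not in epidermis. Of those 3651 genes, 1929 were above 1 CPM in both epidermis replicates 3 and 4. A further measure took the 11073 genes above 1 CPM in epidermis replicates 3 and 4 and in all 4 pith parenchyma libraries. Of these, 933 genes (8.43%) were at 0 in both epidermis replicates 1 and 2, with a median of 10.5 CPM in epidermis replicates 3 and 4 and 15.9 CPM in pith parenchyma. The opposite case, genes above 1 CPM in pith parenchyma and in epidermis replicates 1 and 2 but at 0 in epidermis replicates 3 and 4, did not occur among 6841 genes.

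Which genes differed between the outer layer and the ground tissue was tested with edgeR's quasi-likelihood test over the 20 captured libraries, with Benjamini-Hochberg adjustment. A gene was called when its adjusted p was under 0.05 and its log2 fold change was 1 or more, or -1 or less. Of 19502 genes tested, 498 were called, which is 2.55%. Of these, 285 (1.46% of the tested genes) were higher in epidermis and 213 (1.09%) were lower in epidermis, that is, higher in pith parenchyma. The number of calls depended on the fit. A fit of only the 8 libraries of both types had 245 (1.55% of 15843 tested) higher in epidermis and 88 (0.555%) higher in pith parenchyma. Other tests called more genes: DESeq2 had 817 (4.19%) higher in epidermis and 869 (4.46%) higher in pith parenchyma, and limma voom with sample quality weights had 1009 (5.17%) higher in epidermis and 646 (3.31%) higher in pith parenchyma. In the median called gene of the first set, the log2 fold change of epidermis over pith parenchyma was 9.11, and in the median gene of the second set it was -4.17, against -0.11 over all tested genes. Fitted values of this size depend on the prior count where a type is at 0. With groups at 0 set to a floor of 3 counts per library, the median log2 ratio of mean CPM was 6.6 for genes higher in epidermis and -3.74 for genes higher in pith parenchyma. CPM is a share of a library, so fewer expressing cells and less RNA per cell cannot be told apart. The test itself was coarse: log2 fold changes had a median standard error of 1.45. Of the 19004 genes that were not called, 1945 had fitted differences of at least 16-fold, and 518 had a 95% interval that stayed within 2-fold in either direction.

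At the median, the 285 genes higher in epidermis were present in epidermis and absent or nearly absent from pith parenchyma, but many were detected in both. They had median levels of 118, 148, 134 and 134 CPM in epidermis replicates 1 to 4, against 0.0803, 0, 0 and 0 CPM in pith parenchyma replicates 1 to 4. The 4 epidermis medians lay close together although these libraries differed in depth and detection. Of the 285 genes, 112 were at 0 in all 4 pith parenchyma libraries, where this held for 997 of the 19502 tested genes. The other 173 had a median of 12.9 CPM in pith parenchyma and a median log2 fold change of 3.65. Of the 285, 111 were above 0 in all 4 pith parenchyma libraries, where this held for 13157 of the 19502 tested genes. In all 4 epidermis libraries 262 were above 0, against 8899 of the tested genes. By the ratio of mean CPM with groups at 0 set to the floor, 142 of the 285 differed by 100-fold or more, 107 by 4-fold to 100-fold and 36 by less than 4-fold. With epidermis replicates 3 and 4 alone these classes held 129, 115 and 41 genes. The epidermis libraries lay entirely above the pith parenchyma libraries in 246 of the 285 genes, where this held for 3.96% of all tested genes. The called genes were chosen on these libraries, so the counts describe them and are no separate test.

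Genes lower in epidermis than in pith parenchyma had a different profile. The 213 genes had median levels of 6.49, 3.61, 8.13 and 10.7 CPM in epidermis replicates 1 to 4, against 116, 133, 96.4 and 98.7 CPM in pith parenchyma replicates 1 to 4. Most of them were thus still detected in at least 1 epidermis library, and 40 of the 213 were at 0 in all 4 epidermis libraries. Above 0 in all 4 epidermis libraries were 115 of the 213, against 8899 of the 19502 tested genes. The ratio of mean CPM was 100-fold or more in 40 genes, 4-fold to 100-fold in 143 and less than 4-fold in 30. With epidermis replicates 3 and 4 alone these classes held 48, 128 and 37 genes. All 4 pith parenchyma libraries lay above all 4 epidermis libraries in 173 of the 213 genes, and in 6.84% of the tested genes. The difference in fold class between both sets of called genes was not tested.

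The called genes took up a sizeable part of the RNA of their own tissue. Genes higher in epidermis held 13.3 ± 1.56% of the counts in epidermis libraries and 1.21 ± 0.197% in pith parenchyma libraries (SD, n = 4 each). Genes higher in pith parenchyma held 1.35 ± 0.0912% in epidermis libraries and 7.98 ± 0.699% in pith parenchyma libraries. The share held by the epidermis-high genes was 12.4% and 15.5% in epidermis replicates 1 and 2, and 13.1% and 12% in replicates 3 and 4. The genes were called on these same libraries, so likeness among the 4 epidermis libraries in this measure was favoured by their selection.

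Without epidermis replicates 1 and 2, calls were lost in both sets. This fit shares epidermis replicates 3 and 4 and all 4 pith parenchyma libraries with the fit over all replicates, and 80.6% of all tested genes had the same direction in both. Of the 285 genes, 284 kept their direction, 196 (68.8%) were still called, and the median log2 fold change was 8.72. All 213 pith-high genes kept their direction with a median log2 fold change of -3.95, and 78 of them (36.6%) were still called. The difference between these shares was not tested. Epidermis replicates 3 and 4 lay above all 4 pith parenchyma libraries in 278 of the 285 genes (12.7% of the tested genes), and below all 4 in 175 of the 213 (11.8%). In that fit, 276 of 21525 genes tested were called higher in epidermis (1.28%) and 129 higher in pith parenchyma (0.599%), by edgeR's test. Of the 129, 122 had the same direction over all 4 epidermis replicates and 78 were among the 213. The loss of calls came with 2 epidermis libraries fewer. Calls that stayed in this fit and in all 8 omissions of a single library numbered 152 of the 285 and 57 of the 213.

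The separate replicate pairs show where the epidermis libraries disagreed. Replicates 1 and 2 of every captured type were fitted without replicates 3 and 4, and the reverse, so both fits share no library. Within replicates 1 and 2, 84 genes (0.428% of 19634) were called higher in epidermis and 465 (2.37%) higher in pith parenchyma. Of the 465, 267 (57.4%) were also lower in epidermis within replicates 3 and 4, where 44.2% of the tested genes were lower in epidermis, and their median log2 fold change there was -0.3. Of the 84, 82 were among the genes tested over all 4 replicates, and 79 of these (96.3%) were also higher in epidermis within replicates 3 and 4, where 53.3% of the tested genes were higher in epidermis, and their median log2 fold change there was 8.93. Within replicates 3 and 4, 5 genes (0.0244% of 20450) were called higher in epidermis and 6 (0.0293%) higher in pith parenchyma, with 1513 genes at an unadjusted p under 0.05.

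Genes far lower in epidermis were more numerous in the first pair. A fitted log2 fold change of -4 or less, that is at least 16-fold lower in epidermis, was found for 4636 genes in replicates 1 and 2 and for 1083 in replicates 3 and 4. Of the 19502 tested genes, 19090 were also tested within replicates 1 and 2 and 19270 within replicates 3 and 4. In replicates 3 and 4, 1771 of the 4636 (38.2%) were within 2-fold, and 590 (12.7%) were at least 16-fold lower in epidermis. The share of all tested genes within 2-fold there is not given, so the 38.2% has no background beside it. Genes at least 16-fold higher in epidermis numbered 776 in replicates 1 and 2, of which 425 (54.8%) reached that size in replicates 3 and 4. Taken from the other pair, the 425 were 28.5% of the 1491 genes at least 16-fold higher in epidermis in replicates 3 and 4, and the 590 were 54.5% of the 1083 genes at least 16-fold lower there. The 425 and the 590 are the same overlap seen from either pair, so the pair with more genes past this size must have the smaller share. Of the 213 genes called higher in pith parenchyma over all 4 replicates, 86, 84, 78 and 49 were at 0 in epidermis replicates 1 to 4, where 7761, 7634, 2355 and 2265 of the 19502 tested genes were at 0. What made detection low in these libraries was not tested.

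**Figure D2:**
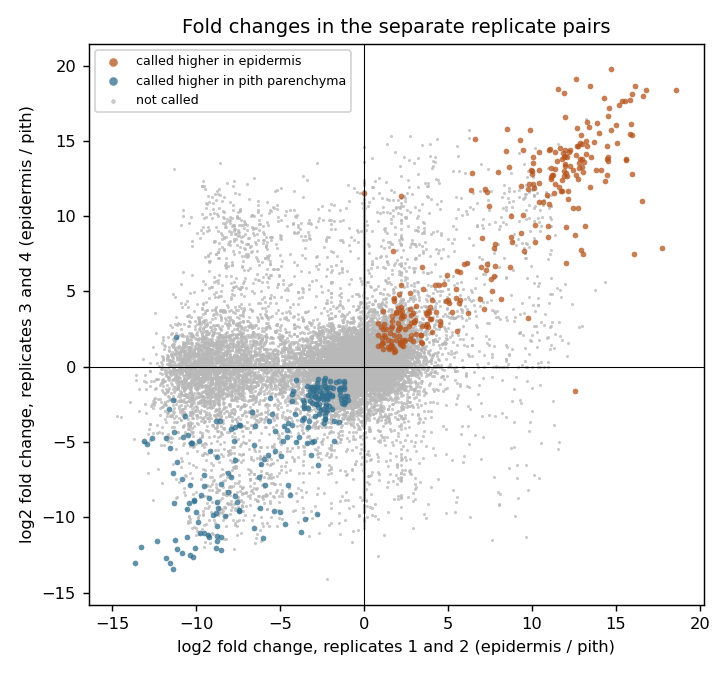
Log2 fold change of epidermis over pith parenchyma for each tested gene, from replicates 1 and 2 (x axis) and from replicates 3 and 4 (y axis), with genes called over all 4 replicates in colour. Nearly all coloured points lie in the upper right or lower left quadrant, which is favoured because they were called on the libraries of both axes. A large group of uncalled genes is far below 0 in replicates 1 and 2 and near 0 in replicates 3 and 4.

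The other tissues show how the epidermis-high genes were placed within the stem. The sorting by the type with the highest mean was chosen after the values were seen and is descriptive. The called genes were selected on epidermis and pith parenchyma values, which enter the sorting. Its shares were therefore favoured by the selection, and all tested genes were not selected in this way. The median of mean CPM over the 285 genes was 155 in epidermis and 0.261 in pith parenchyma. Phloem had 7.86, vascular parenchyma 6.91, xylem sclerenchyma 10.3 and whole stem 16.5. The highest mean among the 5 captured types was in epidermis for 224 of the 285 genes (78.6%), where 20.5% of all tested genes were highest in epidermis. With epidermis replicates 3 and 4 alone, this number was 223. At the median these 224 genes were low in the other captured types, with 178 CPM in epidermis against 0.0436 CPM in pith parenchyma, although 36 of them had a vascular mean within 2-fold of the epidermis mean. The median was 1.75 CPM for phloem, 1.22 for vascular parenchyma and 1.61 for xylem sclerenchyma. None of the 112 genes at 0 in pith parenchyma was at 0 in all 12 libraries of the vascular types. Their medians there were low, at 0.00825 CPM for phloem, 0.0559 for vascular parenchyma and 0.155 for xylem sclerenchyma. The libraries of a type differed in this: of all 285 genes, 107, 109, 62 and 7 were at 0 in xylem sclerenchyma replicates 1 to 4. In vascular parenchyma replicates 1 to 4 these numbers were 103, 105, 97 and 36.

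The other 61 epidermis-high genes had their highest mean in a vascular type, by the sorting. The epidermis mean was within 2-fold of the highest vascular mean in 30 of them and lower by 2-fold or more in 31. Their medians were 72.8 CPM in epidermis and 7.76 CPM in pith parenchyma, with 68.8 CPM for phloem, 105 for vascular parenchyma and 79.7 for xylem sclerenchyma. Their median log2 fold change was 3.36, against 11.2 in the 224 genes highest in epidermis. Without epidermis replicates 1 and 2, 36 of the 61 (59%) and 160 of the 224 (71.4%) were still called. At the median, the 224 genes were thus below 2 CPM in every captured type except epidermis, while the median of the 61 was lowest in pith parenchyma. The call and the sorting both favour this placing.

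The genes lower in epidermis were split into 2 kinds by the same sorting. The highest mean was in pith parenchyma for 119 of the 213 genes (55.9%, against 24.4% of all tested genes). At the median these were expressed in every captured type, with medians of 48.5 CPM in epidermis and 320 CPM in pith parenchyma, and a median log2 fold change of -2.67. Their medians in the vascular types were 64.7 CPM for phloem, 75.6 for vascular parenchyma and 95.6 for xylem sclerenchyma. The other 94 genes were highest in a vascular type and had medians of 0.0391 CPM in epidermis and 17.6 CPM in pith parenchyma, beside 85.3 CPM for phloem, 79.6 for vascular parenchyma and 52.4 for xylem sclerenchyma. Their median log2 fold change was -6.21. At the median this second kind was nearly missing from epidermis. That its pith parenchyma mean lay below the highest vascular mean follows from the sorting and is no separate result. Epidermis had the lowest mean of the 5 types in 170 of the 213 genes (79.8%), where this held for 31.4% of all tested genes, and in 166 with epidermis replicates 3 and 4 alone. Without epidermis replicates 1 and 2, 44 of the 119 and 34 of the 94 were still called. The 213 genes were selected on epidermis and pith parenchyma values, which favoured the shares of 55.9% and 79.8%.

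Whole stem libraries, which were not captured and took no part in the test, lay between epidermis and pith parenchyma at the median of the epidermis-high genes, at 16.5 CPM. At the median of the pith-high genes they had 114 CPM, against 10.1 CPM in epidermis and 133 CPM in pith parenchyma. For the 285 genes, all 4 whole stem libraries were below all 4 epidermis libraries in 198 (69.5%) and above all 4 pith parenchyma libraries in 215 (75.4%), where these held for 5.52% and 15.8% of the tested genes. Against epidermis replicates 3 and 4 alone, whole stem was below in 232 of the 285 (against 16.3% of the tested genes). For the 213 genes, whole stem was above all 4 epidermis libraries in 209 (98.1%, against 26% of the tested genes) and above epidermis replicates 3 and 4 in 210 (against 38.3% of the tested genes). Whole stem was below all 4 pith parenchyma libraries in 9 of the 213 (4.23%, against 2.7% of the tested genes). It was above all 4 in 26 (12.2%, against 15.8%), so both shares were near those of all tested genes. The shares of whole stem counts were 2.35 ± 0.0801% in the epidermis-high genes and 6.35 ± 0.289% in the pith-high genes (SD, n = 4). The called genes were selected on epidermis and pith parenchyma values, which enter these counts. At the 1 CPM level, 264 of the 285 and 212 of the 213 were detected in at least 3 of the 4 whole stem libraries. This held for 17918 of the 19502 tested genes, so detection in whole stem was common to most genes.

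**Figure D3:**
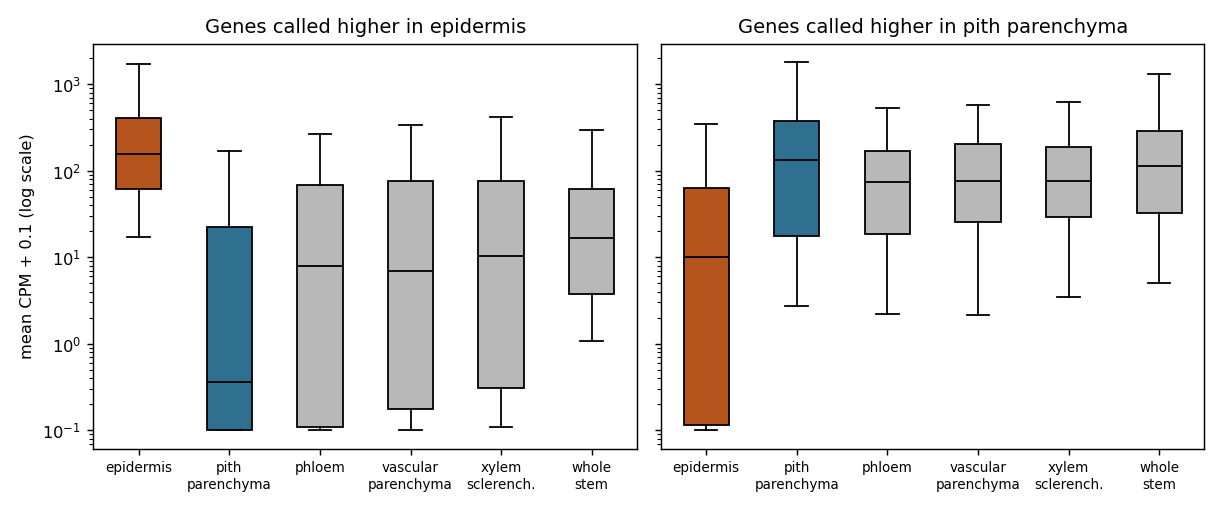
Mean CPM plus 0.1, on a log axis, in each of the 6 groups for the genes called higher in epidermis (left) and higher in pith parenchyma (right). Boxes span the quartiles with the median as a line and whiskers run from the 5th to the 95th percentile of genes; on the left the epidermis median, 155 CPM, is the highest of the 6, and on the right the epidermis median, 10.1 CPM, is the lowest.

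The genes named here were chosen by the largest fitted log2 fold change in each direction among called genes with separate groups, a mean of at least 10 CPM in the higher type and the same direction without epidermis replicates 1 and 2. In epidermis the first was Sobic.010G164500, on chromosome 10 by its identifier. It was at 6186, 4466, 3194 and 138 CPM in epidermis replicates 1 to 4, and no count was recorded in any of the 4 pith parenchyma libraries. The epidermis libraries thus spanned a wide range, with replicate 4 lowest, and did not overlap with pith parenchyma. Its mean of 3496 ± 2552 CPM (SD, n = 4) was at least 12618-fold higher in epidermis, against the pith parenchyma floor. That floor is 3 counts per library and averages 0.277 CPM. With an epidermis library omitted, this fold ran from 9382 (without replicate 1) to 16658 (without replicate 4). The adjusted p was 0.0054 by edgeR's test and 0.0148 without epidermis replicates 1 and 2. With sample quality weights in limma voom, its adjusted p was 0.519 and the call was lost. Over all alternative fits of the 4 replicates and the omissions, the adjusted p ran from 8.05e-12, in DESeq2, to this value. The fits within a replicate pair are not part of this range, nor of the ranges given for the other named genes. In the other captured types its highest value was 5.78 CPM, in xylem sclerenchyma replicate 4, and whole stem had 12.4, 77.3, 156 and 141 CPM.

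Sobic.006G211000, on chromosome 6, followed. It was at 501, 2577, 1885 and 1507 CPM in epidermis replicates 1 to 4 and at 0 in all 4 pith parenchyma libraries. All epidermis libraries were high, and the groups did not overlap. With a mean of 1618 ± 866 CPM (SD, n = 4), it was at least 5838-fold higher in epidermis. Omitting an epidermis library moved this fold to between 4684 (without replicate 2) and 7182 (without replicate 1). By edgeR's test the adjusted p was 0.00746, and 0.0169 without epidermis replicates 1 and 2. Over the alternative fits the adjusted p ran from 1.45e-10 to 0.0284. The gene was also at 0 in all 4 phloem libraries and reached at most 8.08 CPM in vascular parenchyma and 3.31 CPM in xylem sclerenchyma. Whole stem had 21.6, 21.8, 3.74 and 21.1 CPM, lower than every epidermis library.

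In the other direction the first gene was Sobic.009G197300, on chromosome 9. It had 1 count in epidermis replicate 1 and none in epidermis replicates 2 to 4, against 57, 1310, 21.5 and 21.6 CPM in pith parenchyma replicates 1 to 4. Pith parenchyma replicate 2 stood far above the other 3, which still lay above every epidermis library. The ratio of pooled CPM, with pith parenchyma over epidermis, was 32797, with an exact 95% counting interval of 5886 to 1295486. The ratio of the mean CPM of the libraries was 13685, and both ratios rest on the single epidermis count. Without pith parenchyma replicate 2 the pooled ratio was 3215 (interval 576 to 127077) and the ratio of mean CPM was 1295. Without epidermis replicate 1 there is no count in epidermis to form either ratio. The adjusted p was 0.00441 by edgeR's test and 0.0646 without epidermis replicates 1 and 2, which ends the call. Over the alternative fits it ran from 0.00276 to 0.0646, leaving out DESeq2, which gave no adjusted p for this gene. Whole stem had 690, 523, 66 and 90 CPM, and each vascular type averaged 9.23 to 20.3 CPM.

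Sobic.005G165400, on chromosome 5, was at 0 in all 4 epidermis libraries and at 175, 199, 11.8 and 74.4 CPM in pith parenchyma replicates 1 to 4. The groups did not overlap, and pith parenchyma replicate 3 was the lowest of its group. Against the epidermis floor, 0.19 CPM, the gene was at least 606-fold lower in epidermis than the pith parenchyma mean of 115 ± 87.7 CPM (SD, n = 4). With a pith parenchyma library omitted, this fold ran from 458 (without replicate 2) to 787 (without replicate 3). The adjusted p was 0.00356 over all replicates and 0.0295 without epidermis replicates 1 and 2, both by edgeR's test, and it ran from 7.1e-13 to 0.0354 over the alternative fits. Phloem averaged 2.09 CPM, vascular parenchyma 13.4, xylem sclerenchyma 15.9 and whole stem 123. All 4 genes named here were called in each of the 8 omissions of a single library.

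**Figure D4:**
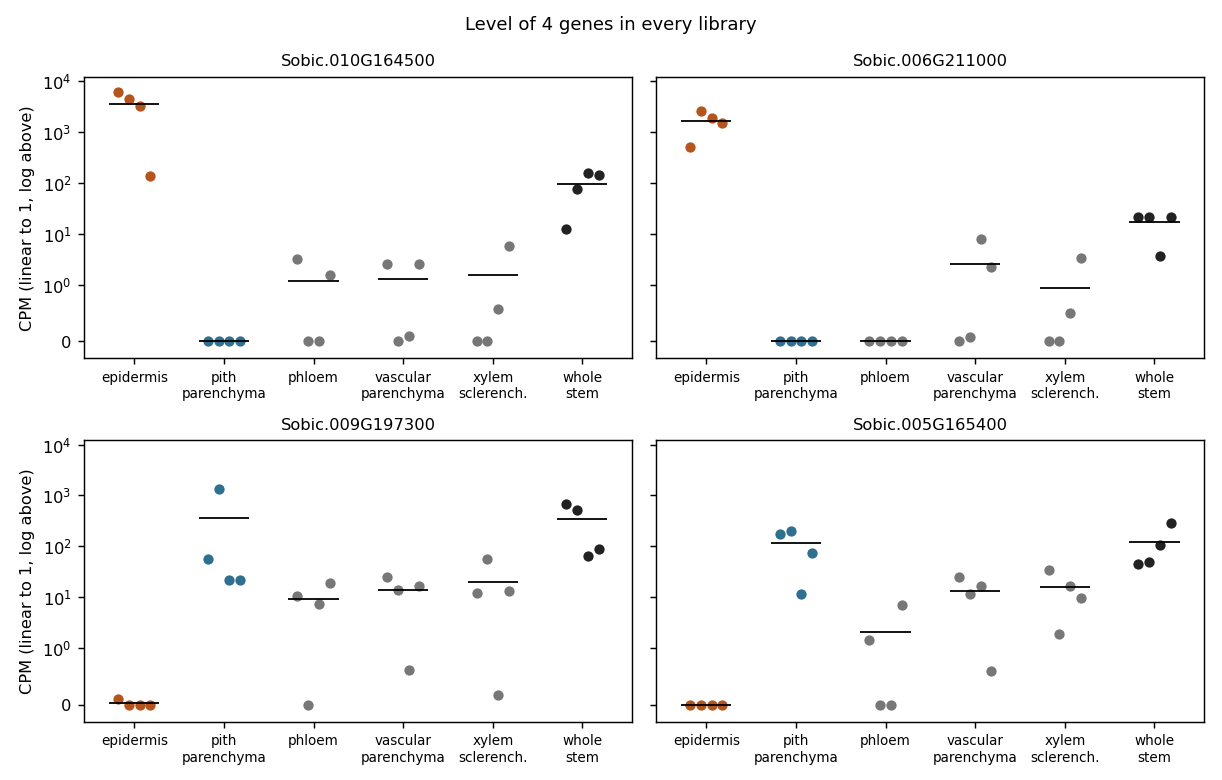
CPM of the 4 named genes in all 24 libraries, on an axis that is linear up to 1 and logarithmic above, with points for replicates 1 to 4 from left to right and a line at each group's mean. The upper genes are at 0 in pith parenchyma, and the lower genes are at or next to 0 in epidermis.

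Positions could be read only from the identifiers, which carry the chromosome and an order along it. Genes higher in epidermis made up 1.16% of the tested genes on chromosome 1 and 2.29% on chromosome 5 (23 of 1005), the lowest and the highest of the 10 chromosomes. Genes higher in pith parenchyma made up 0.669% on chromosome 8 and 1.62% on chromosome 4 (37 of 2279), again the extremes. Some epidermis-high genes were next to each other. Of the 285, 24 (8.42%) had another of the 285 as the adjacent identifier in the table, in 12 pairs, where 1.58% of the other tested genes had such a neighbour. For the 213 pith-high genes this was 6 (2.82%), in 3 pairs, against 1.35%. No chance test was made for these shares. Adjacent genes can be near-identical copies, and the labels do not say how reads common to such copies were assigned, so these pairs are uncertain as separate genes.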

How the data were processed

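Libraries were made with a SMART-Seq v4 PLUS kit and sequenced as single reads of 150 bp, per the labels' protocols. The authors deposited estimated counts per gene with no normalization; Salmon is named in the submitters' processing notes, with FastQC and alevin (version, index, build, gene models: not given in the sources used here). Among deposited expected counts 10.5% were not whole, and all were rounded before the tests. The labels name no molecular identifiers, so intervals and floors cover counting error only.

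R 4.3.3 with edgeR 4.0.16 was used: filterByExpr, TMM, robust quasi-likelihood fits of 5 captured types in 20 libraries, and the contrast epidermis minus pith parenchyma with Benjamini-Hochberg adjustment. Standard errors are the fold change divided by the square root of F. CPM uses library totals. Floors were 3 counts per library, averaged as CPM. Correlations used Spearman ranks of CPM. The code was tested on simulated data. Alternatives included DESeq2 1.42.0 and limma 3.58.1. The members, rules and lists were chosen with earlier results of these data known. The 26 lists defined by product names and a promoter motif search could not be built, since identifiers carry no names here. With names missing, the rule on named genes allowed the first 2 in each direction.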

Additional observations from a re-analysis of the deposited data

Results flagged for a closer look

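Some libraries stood far from the other 3 of their group, with the gap to the nearest library over the group's range above Dixon's 95% limit for 4 samples. For normally distributed values, chance puts about 1 in 20 groups past this limit. CPM values need not be distributed in this way, so the share here is not known. Sobic.009G197300 was at 1310 CPM in pith parenchyma replicate 2, with a gap of 0.972 of the range. In the same library, the genes called higher in pith parenchyma held 9.01% of counts (gap 0.836), against 7.52% to 7.76% in the other 3. In xylem sclerenchyma replicate 4, Sobic.010G164500 was at 5.78 CPM (gap 0.902) and Sobic.006G211000 at 3.31 CPM (gap 0.85), the highest of that group in both genes named as high in epidermis. In whole stem replicate 3, Sobic.006G211000 was at 3.74 CPM (gap 0.96), below the other 3.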

How the results depend on the processing

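The count of 498 called genes, with 285 higher in epidermis and 213 higher in pith parenchyma, moved with the tool, the libraries fitted and the block. DESeq2 called 1686 (817 higher in epidermis, 869 in pith parenchyma) and limma voom with sample quality weights 1655 (1009 higher in epidermis, 646 in pith parenchyma), and 253 of the 285 and 160 of the 213 were called by both. Within replicates 1 and 2 calls numbered 84 for epidermis and 465 for pith parenchyma, and within replicates 3 and 4 there were 11 calls (5 higher in epidermis, 6 in pith parenchyma). Pith-high genes numbered 88 with only the 8 libraries of both types and 129 without epidermis replicates 1 and 2. Omitting a single library gave 343 to 543 calls, 195 to 353 higher in epidermis and 140 to 207 higher in pith parenchyma, the lowest pith-high count without epidermis replicate 3. With replicate number as a block, 410 genes were called over 20 libraries, and 133 (106 higher in epidermis, 27 in pith parenchyma) over the 8 libraries. Samples with the same number did not deviate together (correlations of -0.105 to 0.0506, 0 of 4 epidermis libraries closest to their own number), so the numbers are not taken as pairs. RLE factors, both filters, replicates 1 and 2 against 3 and 4 as a covariate, and no fold threshold kept all 3 counts within 1.5 times. Genes above 1 CPM per library, epidermis minus pith parenchyma, went against the difference of -2062 without epidermis replicates 1 and 2, at 710. The exact permutation p was 0.133, where 2 against 4 libraries allow no p under 0.0667. Omissions of a single library gave differences of -3022 to -1059. DESeq2 gave no adjusted p for Sobic.009G197300. Product lists and the promoter motif were not run. The causes were not tested.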
